A study of Mus musculus with 9 samples.

Results

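The mature B-cell genes described here are 10 genes used by mature B cells, namely Ms4a1, Fcmr, Fcer2a, Cr2, Cd22, Blk, Bank1, Cd37, Fcrla and Cxcr5. Not all are confined to these cells, since late precursors also use Ms4a1 and other leukocytes Cd37. The genes were matched by name to the probes of an expression array on which 37288 gene names occur. Of the 10 genes 10 were found, with 20 probes among them. The array measured RNA of mature megakaryocytes (mMKs), the bone marrow cells that release platelets. They were enriched from male mice by positive selection for CD41 and then CD42d, both surface proteins of the megakaryocyte lineage. How many B cells remained after these selections was not measured here. There were 3 groups of 3 arrays each, namely control mice (Ctrl), mice at 1 day post IR (1 dpi) and mice at 3 dpi, where IR is a single total-body dose of 5 Gy of gamma rays. Separate experiments with different donor mice gave the 3 arrays of a group. The study's methods name wild-type C57BL/6 mice for the comparison of control and irradiated animals, beside mutant lines for other experiments. They do not tie a strain to the arrays, and the age of the array mice is not given in the sources used here. The design asks how the mMK transcriptome differs from Ctrl at each time.

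Mature B cells carry receptors that bind immunoglobulin, complement fragments and follicular chemokines, and co-receptors and kinases that tune signalling from the B-cell receptor. In bone marrow they share the tissue with their own precursors and with B cells that recirculate from blood. Lymphocytes of the B lineage are among the most radiosensitive cells of the marrow, whereas megakaryocytes are large polyploid cells that are not known for using these genes.

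All levels are log2 signals relative to the 75th percentile of the same array, so that 0 is the level below which 75% of the array's spots lie. A gene was represented by its brightest probe, and a change counts as called where limma gave a p below 0.05 after Benjamini-Hochberg adjustment and the difference was 2-fold or more. Of 37288 gene names, 29394 had a probe that Feature Extraction marked as well above background throughout some group, and so were tested, including 10 of the 10 mature B-cell genes. The first Ctrl array stands apart. It is the only array on its slide, with 69.07% of spots well above background against 79.45% and 80.79% on the other Ctrl arrays, and correlates with them at 0.9866 to 0.9867, while these correlate with each other at 0.9976. The 3 arrays at 1 dpi have the lowest 75th percentiles, from 9.33 to 9.45 on the log2 scale against 10.03 to 10.66 in Ctrl.

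Genes of the labelled cell type were read first. Itga2b, which encodes CD41, was at 0.38, 0.32 and 0.29 in Ctrl, at 1.04, 1.04 and 0.98 at 1 dpi, and at 0.19, 0.38 and 0.33 at 3 dpi. Gp5, which encodes CD42d, lay between −0.60 and −0.10 in Ctrl, between −1.10 and −0.88 at 1 dpi and between −0.79 and −0.63 at 3 dpi. Both were well above background on all 9 arrays, as were all 18 genes of a megakaryocyte list, of which Pf4, a platelet chemokine, was the brightest. That mark does not set megakaryocytes apart, since 69.07% to 81.84% of an array's spots carried it, as did all 14 genes of a neutrophil list. In units of the 75th percentile, the megakaryocyte genes summed to 186, 167 and 165 in Ctrl and the neutrophil genes to 1440, 1510 and 1490. The purity of the cells was not measured here. In limma 0 of these 18 genes were called in any of the 3 comparisons, since a call also needs a 2-fold difference. At 1 dpi, at 3 dpi and between the times 12, 9 and 10 had an unadjusted p under 0.05, and 11, 9 and 9 an adjusted p under 0.05. When each gene's own variance was used, 11, 9 and 11 had an unadjusted p under 0.05. The median change of the list was −0.13 at 1 dpi and −0.01 at 3 dpi. Scaling to the array median instead called 1 of them lower at 1 dpi, and 2 higher at 3 dpi than at 1 dpi, and the deposited log2 values called 1 lower at 3 dpi.

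At 1 dpi 6 of the 10 mature B-cell genes fell and 0 rose. Over all 29394 genes 2.87% were called lower and 12.3% higher, so most calls of that comparison went the other way. At 3 dpi 7 of 10 fell and 0 rose, against 1.81% of all genes called lower and 6.99% called higher. The median log2 fold change of the 10 genes was −1.59 at 1 dpi and −1.52 at 3 dpi, where the median of all genes was 0.25 and 0.11. The median of the 10 genes was −0.73 and −1.05 with the normexp background correction, and −2.88 and −2.35 in the deposited log2 values. Both comparisons use the same Ctrl arrays. Between 3 and 1 dpi 1 gene fell and 1 rose, with 4.82% of all genes lower and 3.98% higher, and the median of the 10 genes was 0. Which cells of the samples gave these signals was not measured. In bulk samples fewer B cells, less RNA per B cell and changes in the other cells present cannot be told apart, and none was tested.

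Limits of these counts are as follows. Within the second slide, which leaves out the first Ctrl array, 6 and 7 genes were again called lower, and with the slide as a block the counts were also 6 and 7. Over all genes the split between directions at 1 dpi depends on the scaling, with 18.9% of calls lower here, 43.7% when arrays were quantile normalized and 51.1% when each array's median was subtracted instead. The median of all genes then moved from 0.25 to 0 and to −0.07, whereas 6 and 7 of the mature B-cell genes were called lower, and 4 with a normexp background correction, where the median of all genes was 0.47. At 3 dpi the lower share was 20.6% here and 33.9% in the deposited log2 values, in which the median moved from 0.11 to −0.03. Between the times it was 54.8% here, 75.1% with normexp (median −0.38 against −0.11) and 32.8% with the array median (median 0.08).

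**Figure D1:**
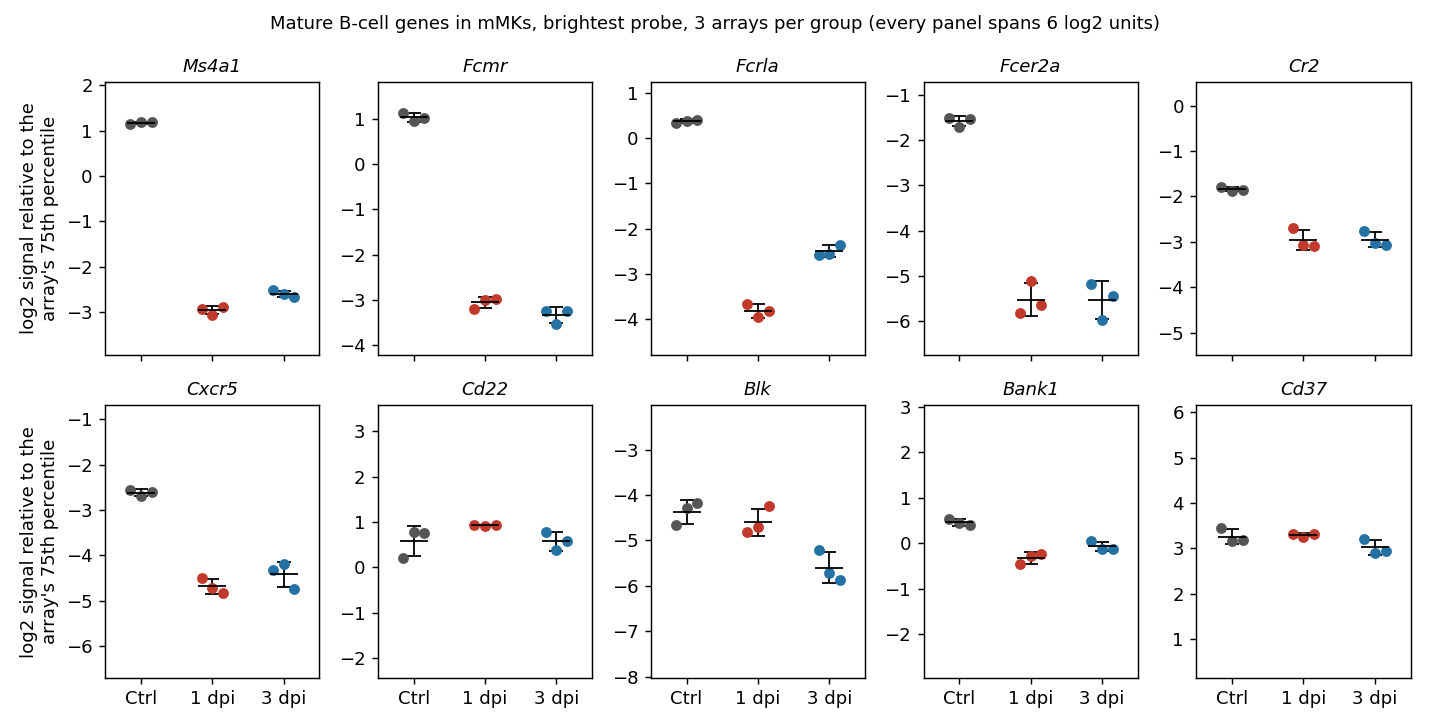
Level of the 10 mature B-cell genes on each of 9 arrays, as the log2 signal of the brightest probe relative to the 75th percentile of the array (y axis, 6 log2 units in every panel), for Ctrl, 1 dpi and 3 dpi. Dots are arrays, bars are the mean and error bars the SD (n = 3), and for the first 6 genes each Ctrl dot lies above all dots of both later groups.

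The immunoglobulin and complement receptors held 3 of the 4 genes that fell most. Fcmr encodes the receptor for the Fc part of IgM, which B cells use from an early stage of their maturation onwards. Its probe lies on the plus strand at chr1:132777256-132777315 of the build mm9. On the 3 Ctrl arrays Fcmr was at 1.13, 0.94 and 1.02, at 1 dpi at −3.19, −3.00 and −2.97, and at 3 dpi at −3.23, −3.53 and −3.24. Every irradiated array was thus more than 3 log2 units below every Ctrl array, and the SD within groups was at most 0.17. The log2 fold change was −4.08 (SE 0.11, adjusted p = 3.6e-07) at 1 dpi, which leaves 5.91% of the Ctrl signal, and −4.36 (SE 0.11, adjusted p = 2.7e-07) at 3 dpi, which leaves 4.87%. The difference of −0.28 between the times was not called (adjusted p = 0.0692).

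Fcrla encodes an Fc receptor-like protein that stays inside the B cell, in the endoplasmic reticulum. Its level was 0.32, 0.38 and 0.40 in Ctrl, −3.66, −3.95 and −3.82 at 1 dpi and −2.58, −2.57 and −2.35 at 3 dpi. The 3 groups did not overlap, and 3 dpi lay between the other groups. The log2 fold change from Ctrl was −4.18 on day 1 (SE 0.10, adjusted p = 2.42e-07) and −2.87 on day 3 (SE 0.10, adjusted p = 7.32e-07). It is the 1 gene of the 10 that rose from 1 to 3 dpi, 2.48-fold (log2 fold change 1.31, SE 0.10, adjusted p = 6.67e-05), to 13.7% of the Ctrl signal. With the normexp background correction that difference was 0.54 and was not called.

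Fcer2a encodes CD23, the low-affinity receptor for IgE on follicular B cells. It lay at −1.51, −1.72 and −1.54 in Ctrl, at −5.81, −5.11 and −5.63 at 1 dpi and at −5.18, −5.98 and −5.44 at 3 dpi. At 1 dpi the probe was well above background on 2 of 3 arrays, so the low values are close to what the array can measure. The fall was 15.2-fold at 1 dpi (log2 fold change −3.92, SE 0.24, adjusted p = 1.37e-05) and 15.3-fold at 3 dpi (−3.94, SE 0.24, adjusted p = 1.36e-05). At the dim end the spread was wider than for the brighter genes, with an SD of 0.37 and 0.41 after IR against 0.11 in Ctrl, and the times did not separate (−0.02, adjusted p = 0.962). With the normexp background correction the falls were smaller, −1.80 and −2.50, and both were still called.

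Cr2 encodes CD21, which binds complement fragments on the B-cell surface. Its brightest probe gave −1.79, −1.87 and −1.85 in Ctrl, −2.70, −3.07 and −3.10 at 1 dpi, and −2.76, −3.02 and −3.07 at 3 dpi. Ctrl lay above both irradiated groups, which overlapped each other. The change was −1.12 at 1 dpi (SE 0.13, adjusted p = 0.000274) and then −1.11 at 3 dpi (SE 0.13, adjusted p = 0.000404). The normexp background correction moved these to −0.64 and −0.92, under 2-fold. The other probes of Cr2 gave different sizes, as described with the probes.

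Ms4a1 encodes CD20, a membrane protein that B cells carry from the late precursor stage until they become plasma cells. Its brightest probe, on the minus strand at chr19:11325409-11325468 of mm9, read 1.14, 1.18 and 1.18 in Ctrl, −2.94, −3.06 and −2.88 at 1 dpi, and −2.52, −2.61 and −2.66 at 3 dpi. The SD within a group was at most 0.09, and Ctrl stood more than 3 log2 units above the rest. The fall was 17.5-fold at 1 dpi (log2 fold change −4.13, SE 0.07, adjusted p = 5.77e-08) and 13.6-fold at 3 dpi (−3.77, SE 0.07, adjusted p = 1.03e-07). The 3 dpi arrays were all above the 1 dpi arrays, by 0.36 on average (adjusted p = 0.00392), which is under 2-fold and was not called.

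Cxcr5 encodes the chemokine receptor that guides B cells into follicles along CXCL13. It was at −2.55, −2.70 and −2.61 in Ctrl, at −4.50, −4.71 and −4.83 at 1 dpi and at −4.33, −4.20 and −4.74 at 3 dpi. Its changes, both called, were −2.06 at 1 dpi (SE 0.15, adjusted p = 3.07e-05) and then −1.80 at 3 dpi (SE 0.15, adjusted p = 6.85e-05), and the irradiated groups overlapped. At 1 dpi the normexp background correction gave −0.74, which was not called.

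Cd37 encodes a tetraspanin of mature B cells that other leukocytes also carry, and it was the brightest of the 10 genes in the summed signal. Its brightest probe lay between 3.16 and 3.44 in Ctrl, between 3.26 and 3.32 at 1 dpi and between 2.90 and 3.20 at 3 dpi. The groups overlapped with Ctrl, and the changes of 0.04 and −0.24 were not called (adjusted p = 0.771 and 0.127). At 1 dpi scaling to the array median gave −0.28, and the deposited values, which follow another probe, gave 0.37. That 0.37 rests largely on the first Ctrl array. In the deposited values this array read 11.26, against 12.25 and 12.37 on the other Ctrl arrays and 12.17 to 12.49 at 1 dpi. No direction can therefore be given.

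The 3 signalling proteins behaved unlike one another. Blk encodes a kinase of the Src family that acts just below the B-cell receptor. It was dim, at −4.66, −4.28 and −4.17 in Ctrl, −4.82, −4.71 and −4.25 at 1 dpi and −5.22, −5.71 and −5.87 at 3 dpi, although well above background on all 9 arrays. Ctrl and 1 dpi overlapped (change −0.23, SE 0.22, adjusted p = 0.408), whereas at 3 dpi each array was below all others and Blk fell 2.35-fold (−1.23, SE 0.22, adjusted p = 0.00428). It was also lower at 3 dpi than at 1 dpi, by 1.01 (SE 0.22, adjusted p = 0.00853). That last call sits at the 2-fold limit. It was not made with the normexp background correction, under any other scaling or with the deposited values (−0.93 to −0.78, the lowest with normexp). Nor was it made without 1 dpi array 3 (−0.83) or without 3 dpi array 2 or 3 (−0.95 and −0.87). At 1 dpi Blk was negative under every scaling (−0.66 to −0.23) and positive only with the normexp background correction (0.38), and the 3 dpi call against Ctrl was not made with the normexp background correction (−0.55).

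Bank1 encodes a scaffold that joins the B-cell receptor to calcium release. Its levels were 0.54, 0.44 and 0.39 in Ctrl, −0.47, −0.28 and −0.23 at 1 dpi and 0.05, −0.12 and −0.13 at 3 dpi. Ctrl lay above both later groups, yet the differences of −0.78 (SE 0.09, adjusted p = 0.000292) and −0.52 (SE 0.09, adjusted p = 0.00324) were under 2-fold. Scaling to the array median brought the 1 dpi value to −1.10, which was called.

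Cd22 encodes a sialic acid-binding co-receptor that restrains B-cell receptor signalling. Its brightest probe read 0.20, 0.79 and 0.76 in Ctrl, 0.93, 0.92 and 0.94 at 1 dpi and 0.79, 0.38 and 0.59 at 3 dpi. The low Ctrl value is that of the first Ctrl array, and without it the 1 dpi change went from 0.35 to 0.15. Neither comparison with Ctrl was called (adjusted p = 0.118 at 1 dpi and 0.992 at 3 dpi). In the deposited log2 values, which follow another probe of Cd22, the 1 dpi change was −1.56 and was called. The sign at 3 dpi also depends on the setting (−0.69 to 0.11 over 24 alternatives).

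**Figure D2:**
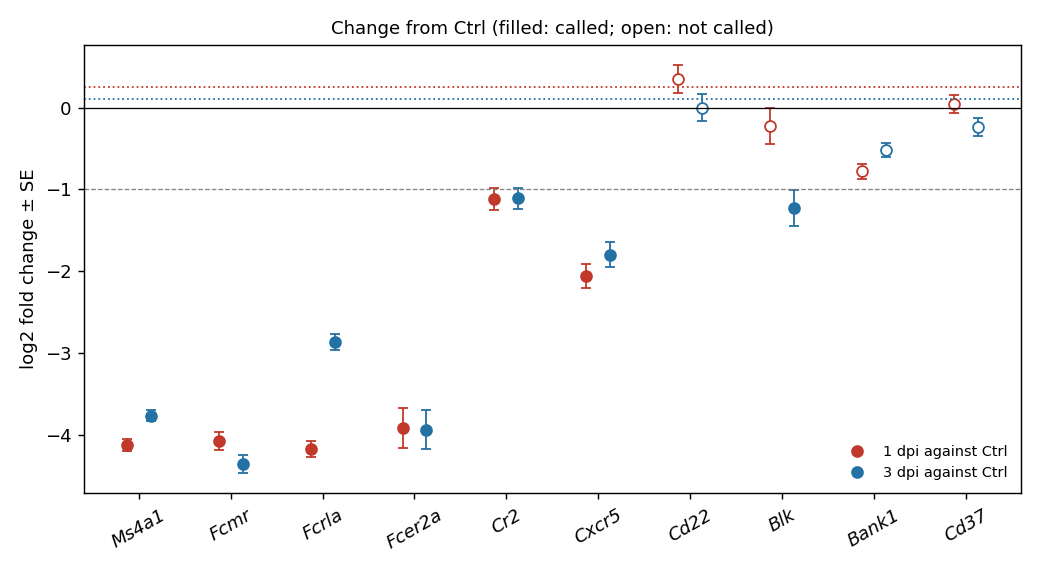
Log2 fold change from Ctrl (y axis) of the 10 mature B-cell genes at 1 and 3 dpi, with SE bars from the limma fit on 9 arrays. Filled dots were called, open dots were not, the dashed line marks 2-fold lower and the dotted lines the median of all genes (0.25 and 0.11). Fcmr, Fcer2a, Ms4a1 and, at 1 dpi, Fcrla lie near −4, while Cd22, Cd37 and, at 1 dpi, Blk lie near 0. There the sign at 1 dpi depends on the probe for Cd22, on the scaling for Cd37 and on the background correction for Blk.

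Since 6 of the 10 genes have several probes and 4 have 1, the probes were compared within each gene. Of the 20 probes 19 passed the filter, and 8 of these were called lower and 1 higher at 1 dpi, and 9 lower and 0 higher at 3 dpi. Both lower counts include a Cr2 probe that was well above background on 0 of 3 arrays at that time. The share called over all probes is not given here. Over all genes it was 2.87% lower and 12.3% higher at 1 dpi, and 1.81% lower and 6.99% higher at 3 dpi. For Ms4a1, a second probe 1075 bases away, designed on an Ensembl transcript, moved the other way. It read −3.56, −3.30 and −3.30 in Ctrl, −1.82, −1.93 and −2.02 at 1 dpi and −3.36, −3.38 and −3.42 at 3 dpi. All 3 arrays at 1 dpi were above all others. At 1 dpi this probe rose, with a log2 change of 1.46 (SE 0.10, adjusted p = 3.49e-05), and it was back at the Ctrl level at 3 dpi (change 0, adjusted p = 0.993), while the probe on the RefSeq transcript fell 17.5-fold.

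Fcer2a showed the same split. The probe on the RefSeq transcript, at chr8:3682021-3682080 of mm9, fell as given. A second probe 7249 bases away, designed on a cDNA clone, was at −5.18, −5.35 and −5.15 in Ctrl, at −4.11, −4.63 and −3.96 at 1 dpi and at −5.15, −5.45 and −5.47 at 3 dpi. Its change at 1 dpi was 0.99 (SE 0.18, adjusted p = 0.0038), just short of 2-fold, and −0.13 at 3 dpi (adjusted p = 0.647). When only probes well above background on all 9 arrays were kept, this second probe took the place of the first and the sign of Fcer2a at 1 dpi turned to 0.99. Neither second probe was tied to a separate transcript here, because no transcript models of mm9 were used.

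The 3 probes of Cr2 lie within 1839 bases of each other on the same RefSeq transcript and all went down, by different amounts. A probe 358 bases from the brightest changed by −0.51 at 1 dpi (SE 0.13, adjusted p = 0.0149), which is under 2-fold, and fell by 1.04 at 3 dpi (SE 0.13, adjusted p = 0.000987). The probe farthest from the brightest was at −3.98, −4.05 and −3.93 in Ctrl and was well above background on 0 of 3 arrays at both times. It gives only bounds, namely at least 3.44-fold lower at 1 dpi and at least 7-fold lower at 3 dpi. For these, each dim value was raised, where needed, to that of the dimmest probe still marked as well above background on its array. Cr2 in the deposited log2 values follows this farthest probe (Pearson r 0.997 over 9 arrays).

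Cd22 has 4 probes. The brightest, on 1 RefSeq transcript, and a probe 341 bases away, on another, disagreed. The latter read −2.24, −2.17 and −2.26 in Ctrl, −3.51, −3.58 and −3.49 at 1 dpi and −2.81, −2.91 and −2.93 at 3 dpi. With no overlap between any of the groups, it fell by 1.30 at 1 dpi (SE 0.07, adjusted p = 1.4e-05), and stood 0.66 below Ctrl at 3 dpi, under 2-fold (log2 fold change −0.66, SE 0.07, adjusted p = 0.000414). The probe 9894 bases away was well above background on 0 of 3 arrays at 1 dpi and allows no bound above 1-fold, and the one 13864 bases away changed by 0.73 and 0.42 without a call. The size of these 2 changes depends on the first Ctrl array, which read −5.72 against −4.66 and −4.86 on the other Ctrl arrays. The brightest-probe rule therefore sets whether Cd22 counts among the genes that fell.

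Cd37 and Bank1 complete the comparison. The other probes of Cd37, 1052 and 4102 bases from the brightest, changed by 0.40 and 0.37 at 1 dpi and by −0.13 and −0.28 at 3 dpi, with 0 of these values past 2-fold. On the farther probe the first Ctrl array read 1.19, against 2.12 and 2.22 on the other Ctrl arrays, so the size of both its changes depends on that array. The second probe of Bank1 was well above background on 0 of 9 arrays and was not tested. Of the 10 genes, the deposited log2 values follow a probe other than the brightest for Cr2, Cd22, Cd37 and Bank1, and they called 8 genes lower at each time. These 8 include Bank1, for which they come closest (Pearson r 0.779 over 9 arrays) to the probe that was well above background on no array, so that call carries no weight.

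**Figure D3:**
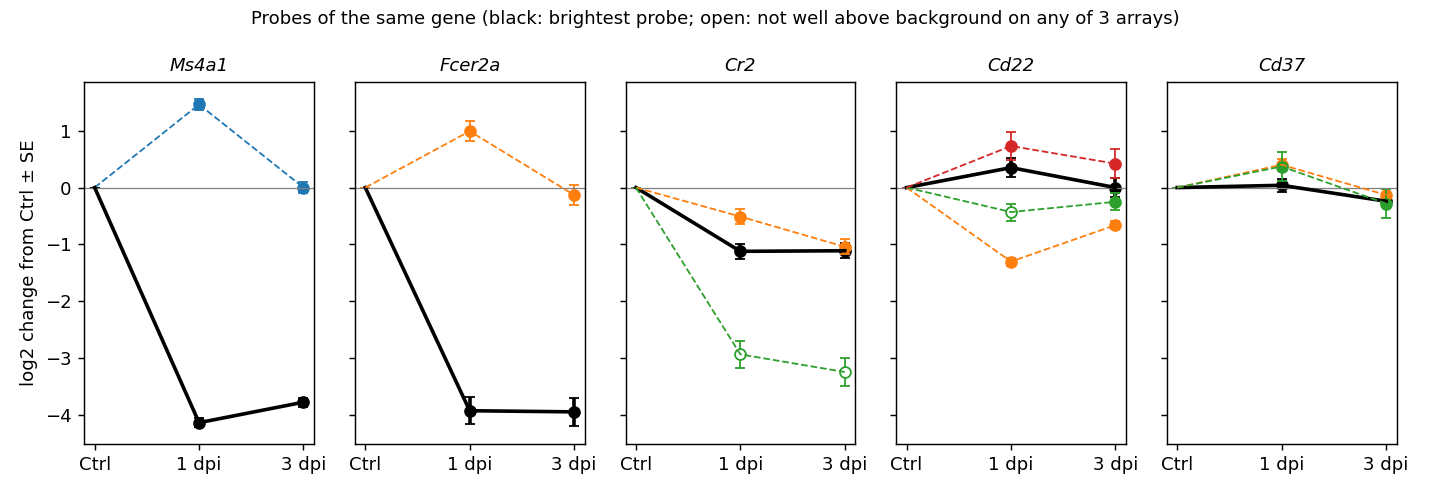
Change from the Ctrl mean in log2 units (y axis, SE bars from a limma fit over probes) at 1 and 3 dpi for each probe of Ms4a1, Fcer2a, Cr2, Cd22 and Cd37. Black lines are the brightest probes, dashed lines the others, and open dots groups in which a probe was well above background on 0 of 3 arrays. The second probes of Ms4a1 and Fcer2a stand at 1.46 and 0.99 at 1 dpi, against −4.13 and −3.92 for the brightest.

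Because several of these genes moved together, the bases before their transcription starts were read, as 250 bases before each start from the RefSeq promoters of GRCm38.p6. Of the 10 genes 7 had an entry, with 9 promoters in all, 3 of them for Fcer2a. Ms4a1, Blk and Cxcr5 had none. Each was searched on both strands for 4 motifs of factors used by B-lineage cells, namely the octamer ATGCAAAT bound by OCT factors, TCCC and GGGA with 2 bases between them, bound by EBF1, the E-box CAGGTG bound by E2A proteins, and GAGGAAGT, an ETS motif of the PU.1 kind. The promoters of 4 genes that fell and of Cd22, whose probes disagreed, are shown, with matches to any of the motifs in capitals.
Fcmr, chr1:130865527-130865776, plus strand: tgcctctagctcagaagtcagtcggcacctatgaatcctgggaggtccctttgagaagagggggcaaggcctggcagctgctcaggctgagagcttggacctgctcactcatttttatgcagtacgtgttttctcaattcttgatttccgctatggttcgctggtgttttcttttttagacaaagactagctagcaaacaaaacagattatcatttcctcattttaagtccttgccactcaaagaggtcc
Fcrla, chr1:170927584-170927833, minus strand: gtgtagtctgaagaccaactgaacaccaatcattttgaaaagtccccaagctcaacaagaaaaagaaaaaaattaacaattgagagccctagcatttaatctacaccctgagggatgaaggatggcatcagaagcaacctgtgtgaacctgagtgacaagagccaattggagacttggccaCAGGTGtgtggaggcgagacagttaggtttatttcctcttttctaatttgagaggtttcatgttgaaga
Fcer2a, chr8:3690862-3691111, minus strand: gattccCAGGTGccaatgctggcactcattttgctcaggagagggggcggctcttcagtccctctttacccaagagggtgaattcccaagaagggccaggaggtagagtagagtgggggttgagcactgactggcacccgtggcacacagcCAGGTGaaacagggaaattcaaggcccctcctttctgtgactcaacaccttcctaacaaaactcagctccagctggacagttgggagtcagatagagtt
Cr2, chr1:195176720-195176969, minus strand: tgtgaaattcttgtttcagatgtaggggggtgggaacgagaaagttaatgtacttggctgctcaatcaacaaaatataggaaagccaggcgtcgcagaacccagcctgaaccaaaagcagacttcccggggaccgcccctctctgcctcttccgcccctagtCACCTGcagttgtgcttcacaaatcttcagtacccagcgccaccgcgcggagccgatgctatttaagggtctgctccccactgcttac
Cd22, chr7:30879029-30879278, minus strand: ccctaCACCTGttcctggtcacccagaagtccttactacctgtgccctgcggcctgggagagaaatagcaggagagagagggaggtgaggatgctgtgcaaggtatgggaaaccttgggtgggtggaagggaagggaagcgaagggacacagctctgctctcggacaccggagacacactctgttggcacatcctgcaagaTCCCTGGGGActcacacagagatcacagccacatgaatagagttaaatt

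The E-box letters stood in 6 of the 9 promoters, against 17.2% of 32851 promoters of all genes. They began 69 bases before the start of Fcrla, 88 before that of Cr2, 245 before that of Cd22, and 244 and 99 before the start of Fcer2a shown, and they also occurred before Bank1 and Cd37. The window before Fcmr, the gene that fell most at 3 dpi, held 0 of the 4 motifs, as did the other 2 starts of Fcer2a. The EBF1 letters occurred once, 49 bases before the start of Cd22 (0.779% of all promoters), the PU.1 letters once, before Cd37 (2.44%), and the octamer in 0 of 9 (1.60% of all promoters). No 2 of these matches overlapped. A match is a run of letters and not a bound site, and genes with a match include Cd37 and Bank1, which were not called, beside Cr2 and Fcrla, which were.

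The genes also differed in how closely they moved together. Over the 9 arrays the level of each was set against the mean of the other 9, after centring. Pearson r was 0.994 for Ms4a1, 0.993 for Fcmr, 0.990 for Fcer2a, 0.973 for Cxcr5 and 0.972 for Cr2. It was 0.926 for Fcrla and 0.921 for Bank1, and lower for Blk (0.552), Cd37 (0.299) and Cd22 (−0.332). These values describe 9 arrays in 3 groups, so a high r can come from the step between Ctrl and the irradiated groups alone. The genes outside the 10 that followed their mean most closely included Ctse, an aspartic protease, with r of 0.9976, Sbk1, a kinase, with 0.9968, Gpr161 with 0.9949, and Ccr7, a chemokine receptor, with 0.9948. Several others, led by NAP114498-1 with 0.9985, carry names of clones or unnamed transcripts.

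In summed signal, in units of the 75th percentile of each array, the 10 genes together came to 18 to 20 in Ctrl, 13.1, 12.8 and 13.3 at 1 dpi and 12.7, 10.3 and 10.8 at 3 dpi. Much of this is Cd37. Without it the sums were 9.10, 9.35 and 9.44 in Ctrl, 3.20, 3.25 and 3.33 at 1 dpi, and 3.46, 2.85 and 3.08 at 3 dpi. The sum thus stayed at the lower level at both times.

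Genes that work beside these 10 in B cells were taken from lists of known members. Of 22 genes of B-cell receptor signalling, 5 fell and 1 rose at 1 dpi, and 4 fell and 0 rose at 3 dpi, with medians of −0.08 and −0.05. Cd79a and Cd79b, the signalling chains of the receptor, fell by 1.53 and 1.28 at 1 dpi and by 2.22 and 1.52 at 3 dpi. Blnk, an adaptor, fell by 1.48 at 1 dpi and was 1.08 higher at 3 dpi than at 1 dpi. Most of the list, 16 and 18 genes, was not called.

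Of 16 transcription factors of the B lineage, 5 fell and 1 rose at each time (medians −0.48 and −0.50). At 1 dpi 0 rose with normexp, after quantile normalization, with the array median and in the deposited log2 values. In the deposited values 7 fell at each time, with medians of −1.27 and −1.13, and with the array median 7 fell at 1 dpi. Bach2, a repressor of plasma cell fate, fell by 4.11 and 2.88, Spib, an ETS factor, by 3.65 and 3.20, and Pou2af1, a coactivator of OCT factors, by 2.91 and 2.05. Ebf1, which specifies the lineage, fell by 2.84 at 1 dpi. Like Fcrla, Ebf1 and Bach2 rose from 1 to 3 dpi, by 1.23 and 1.24, and they were 2 of 16 to do so. This rests on their brightest probes, since the other Bach2 probe gave −0.43 and the 3 Ebf1 probes ran from 0.38 to 1.23. With the normexp background correction 0 of the 16 were called between the times.

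Among 16 receptors of B-cell survival, homing and help, 3 fell and 0 rose at 1 dpi and 3 fell and 2 rose at 3 dpi (medians −0.02 and 0.02, with signs that depend on the background correction and on the scaling). In the deposited log2 values 3 fell and 4 rose at 1 dpi. Tnfrsf13c, the BAFF receptor on which mature B cells depend, was at 0.31, 0.38 and 0.33 in Ctrl and fell, with log2 fold changes of −2.99 at 1 dpi and −3.27 at 3 dpi. That is its brightest probe, and the other gave 0.32 and −0.56. Ccr7 fell by 1.96 and 1.85, while Il4ra and Cd86, which other leukocytes share, rose by 1.16 and 1.23 at 3 dpi. Of 10 genes of MHC class II presentation, used by B cells and other presenting cells, 5 fell at 1 dpi and 2 at 3 dpi, and 0 rose at either (medians −0.90 and −0.41). With the normexp background correction 4 and 0 fell (median −0.58 at 1 dpi), and 1 fell at 3 dpi after quantile normalization. H2-Aa fell by 1.31 and Cd74 by 1.07 at 1 dpi.

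The list of B-cell precursors has 12 genes, of which 8 fell and 1 rose at 1 dpi and 9 fell and 0 rose at 3 dpi. Rag1, counted as lower in both, was well above background on 0 of 3 arrays at each time, which allows no bound above 1-fold at 1 dpi and one of at least 1.8-fold at 3 dpi, so no median of the list is given. Vpreb3 was at 2.69, 2.76 and 2.79 in Ctrl, −2.85, −2.65 and −2.51 at 1 dpi and −1.18, −1.26 and −1.20 at 3 dpi. It fell by 5.42 and 3.96, and rose by 1.46 between the times, as did Igll1 (1.26) and Lef1 (1.31). Vpreb2, which differed most between the times, was 1.78 above Ctrl at 1 dpi and fell from there (−3.50). A lower call for Rag1 between the times compares background signals and is void. With the normexp background correction 0 of the 12 rose between the times. The summed signal of the list, of which Cd93 is the brightest gene, was 40.9, 37.2 and 37.3 in Ctrl, 25.2, 23.9 and 24.2 at 1 dpi and 20.5, 19.7 and 18.5 at 3 dpi. Cd93 itself was not called (0.12 and −0.14), and without it the sums were 22.2, 21.2 and 21.2, then 6.37, 5.83 and 5.96, then 4.43, 4.21 and 4.18. Whether the 10 mature genes and the precursors differ in size of change was not tested. Of 8 plasma cell genes, 0 were called in limma at 1 dpi, where 5 had an unadjusted p under 0.05, and Prdm1 rose by 1.2 at 3 dpi. With normexp 0 of the 8 rose at 3 dpi, and with the array median 1 fell at 1 dpi. Immunoglobulin genes were not matched by the names searched, and 0 of 8 are reported.

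**Figure D4:**
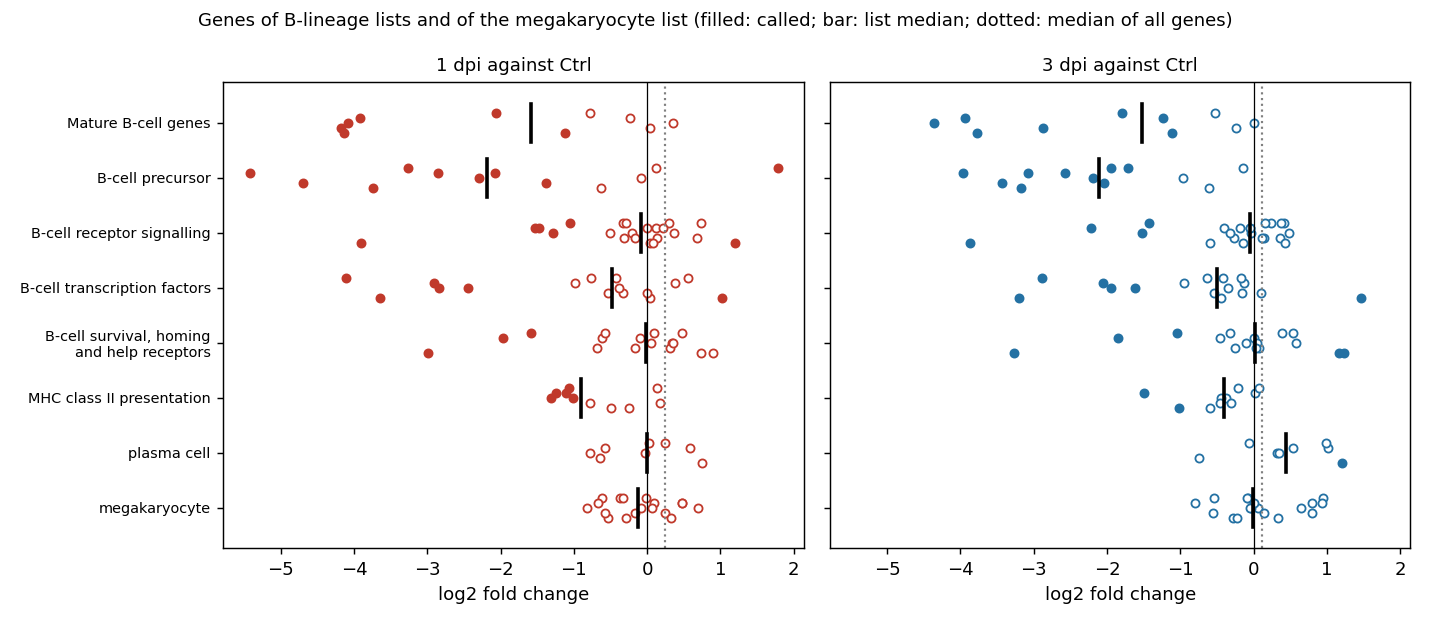
Log2 fold change (x axis) at 1 dpi and 3 dpi against Ctrl of each gene of the mature B-cell list, of 6 other B-lineage or presentation lists and of the megakaryocyte list. Filled dots were called, black bars are list medians and the dotted line is the median of all genes (0.25 and 0.11). The mature B-cell list has medians of −1.59 and −1.52, which were −0.73 and −1.05 with the normexp background correction and −2.88 and −2.35 in the deposited log2 values. The precursor bar rests in part on Rag1, which was at background at both times, and the size of the other medians, with their signs near 0, depends on the setting.

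Markers of other cells were counted as well, and their part in the fall of the mature B-cell genes was not tested. Of all genes, 12.3% were called higher at 1 dpi and 6.99% at 3 dpi. Of 12 erythroid genes 10 fell and 1 rose at 1 dpi, and 9 fell at 3 dpi. At 1 dpi 3 of these 10 were well above background on 0 of 3 arrays. With normexp 7 of the erythroid genes fell at 1 dpi, and 0 of them rose after quantile normalization or in the deposited log2 values. Their sum was 80.5, 65.5 and 69.9 in Ctrl, 140, 137 and 140 at 1 dpi and 64.1, 63.2 and 63.8 at 3 dpi, and it followed Hemgn, their brightest gene, which rose at 1 dpi. Without Hemgn it was 24.2, 22.4 and 22.7 in Ctrl, 6.13, 5.96 and 6.16 at 1 dpi and 7.59, 8.50 and 8.41 at 3 dpi. Macrophage genes went the other way, with 5 of 14 higher and 2 lower at 1 dpi and 10 higher at 3 dpi. Their sum, led by Csf1r, was 64.2, 58.0 and 55.8 in Ctrl, 84.6, 79.9 and 84.2 at 1 dpi and 154, 151 and 149 at 3 dpi. Stromal genes, led by Cxcl12, were higher for 7 and 6 of 10, with sums of 10.3, 9.92 and 10.4 in Ctrl, 51.1, 44.0 and 47.9 at 1 dpi and 93.0, 84.8 and 91.3 at 3 dpi. NK cell genes were higher for 5 and 8 of 9, but at 1 dpi for 3 after quantile normalization and for 1 with the array median, and at 3 dpi for 4 with normexp. Endothelial genes were higher for 3 and 5 of 8, and with the array median 1 was higher and 1 lower at 1 dpi. T cell genes were higher for 2 and 5 of 17, with 1 and 0 lower. At 3 dpi 3 of them were higher with normexp, after quantile normalization and in the deposited log2 values. At 1 dpi the share of 2 in 17 is near that of all genes. The same holds for neutrophil genes, with 2 and 0 of 14 higher, and 0 at 1 dpi after quantile normalization or with the array median. Their sum, led by Mpo, was 1440, 1510 and 1490 in Ctrl, 2490, 2330 and 2310 at 1 dpi and 1610, 1450 and 1530 at 3 dpi. Of 10 dendritic cell genes 2 and 1 were lower and 2 and 0 higher, and 4 were lower at 1 dpi under those scalings.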

How the data were processed

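RNA of mMKs was measured on 9 Agilent 1-colour arrays, 3 per group. The authors deposited spot intensity values from Agilent Feature Extraction 10.7.1.1, per the submitters' processing notes, which subtracts the background and does not scale arrays to each other. A table of log2 values was deposited too, for 27275 gene names, whose making is not described in the sources used here and whose array medians lie between 5.79 and 5.87. It was used as an alternative. The study's methods describe another array type, which these files are not.

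Control spots and outlier spots were left out and repeated spots were averaged. Of 56605 probes, 20 were dropped for outlier marks, 33878 were named through RefSeq accessions with the GRCm38.p6 gene table, and 22707 kept the name in the array files. Probes are placed by the mm9 positions the array files give, and promoters are RefSeq sequences on GRCm38.p6. Log2 signals were taken relative to the 75th percentile of the array. A probe was kept if marked as well above background throughout some group, and the brightest probe of each gene was used. A single limma 3.58.1 model (R 4.3.3) held all 9 arrays, and p was adjusted after Benjamini and Hochberg over 29394 genes. The code was tested on simulated data. It missed some changed genes with a wide spread, so a gene not called may still differ, and the pass criterion was replaced after a first version failed. With 3 arrays against 3, an exact permutation test cannot give a p under 0.1, and the number of arrays limits the precision. Plots come from matplotlib 3.10.9 under Python 3.11.15, and the package data.table, version 1.17.8, read the files.

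The 10 genes and all lists were chosen with earlier results of these data known. Named genes are the 10 members, some of the at most 4 called genes with the widest change per list and comparison, Itga2b and Gp5, the brightest gene of some lists, and genes among the 10 closest to the members' mean. Alternatives were other background corrections, scalings, filters, probe summaries, tests and blocks, the deposited values, and leaving out each array. The row of an array on its slide was added as a block after seeing the data.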

Additional observations from a re-analysis of the deposited data

Results flagged for a closer look

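For 2 of the 10 genes the change from Ctrl differed between the times, by the test of 3 dpi against 1 dpi together with the 2-fold limit. Ms4a1 also passed the test (0.36, adjusted p = 0.00392), but under 2-fold. Fcrla was higher at 3 dpi than at 1 dpi by 1.31 on the log2 scale (adjusted p = 6.67e-05), with all 3 arrays at 3 dpi above all 3 at 1 dpi. Blk was lower at 3 dpi than at 1 dpi, with a log2 difference of −1.01 (adjusted p = 0.00853) and all 3 arrays below. The first was not called with the normexp background correction, and the second was not called in several settings. Groups of 3 arrays are too small to look for single outlying arrays by rule.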

How the results depend on the processing

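Over 24 alternatives, Ms4a1, Fcmr and Fcrla kept their direction and their call against Ctrl at both times, with ranges at 1 dpi of −4.44 to −1.33, −4.40 to −3.34 and −4.49 to −3.11. Cd22 turned to −1.56 at 1 dpi with the deposited log2 values and Fcer2a to 0.99 at 1 dpi with probes well above background on all 9 arrays, in both cases because another probe stood for the gene. The mature B-cell genes called ranged from 4 to 8 at 1 dpi and from 5 to 8 at 3 dpi. At 1 dpi the 8 are those of the deposited values, which count Bank1 on background signal, and the highest count elsewhere was 7. Between the times, 2 were called here, 0 with normexp, 1 with quantile normalization, with the array median and with the deposited values, 5 with the methods' t-test unadjusted, and 1 to 2 when each array was left out.

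Over all genes the main counts were 4465, 2589 and 2587 (1 dpi, 3 dpi, and between the times). With normexp they were 2797, 1293 and 1604, without a minimum fold 16430, 9407 and 13116, with the methods' t-test 15659, 10515 and 16898 unadjusted and 12609, 7118 and 14310 adjusted. Without the filter on dim probes 4487 genes were called between the times, and with the row on the slide as a block, added after seeing the data, 7054 at 1 dpi. Leaving out each array gave 3595 to 5373, 2365 to 2775 and 2268 to 2880. The cause of these shifts was not tested, except that dropping the fold minimum calls smaller changes.

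With the replicate block the counts over all genes were 4270, 2500 and 2494, and 6, 7 and 2 for the mature B-cell genes. Same-numbered arrays deviated with correlations of −0.106 to 0.129, so the numbers are not taken to pair samples. All arrays at 1 dpi lie in 1 row of the second slide and have the lowest 75th percentiles, and neither can be told apart from the time point in full.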
